A study of Mus musculus with 6 samples.

Results

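Cuedc2, Cradd, Dph6, Fam73a and Srgn are 5 genes that were selected on these data as some of the strongest falls in both THAP1 mutants of mouse embryonic stem cells. They are 5 of the 19713 genes in the count table, and all 5 passed the filter on low values that left 15287 genes for testing. RNA sequencing covered 3 genotypes with 2 libraries each, numbered replicate 1 and replicate 2. Wild-type cells (WT) were compared with cells in which both Thap1 copies code for C54Y (a missense change) and with cells carrying the Thap1 ΔExon2 deletion (KO). All 3 groups were C57Bl/6 embryonic stem cells derived from blastocysts, and all were kept on a feeder layer of irradiated mouse embryonic fibroblasts, in medium with LIF (leukemia inhibitory factor) and serum. The labels name no clone, passage or age, and they do not say whether the 2 libraries of a genotype came from separate cultures. The p-values below therefore measure only the spread between these libraries, which may be technical.

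THAP1 is a zinc finger transcription factor that binds DNA through its THAP domain, and mutations in it cause the movement disorder DYT6 dystonia. The cysteine changed in C54Y is one of the residues that hold the zinc ion of that domain. THAP1 binds at the promoters of many genes, and YY1, another zinc finger factor, has been linked to it there. The 5 genes have unrelated products. Cuedc2 encodes a ubiquitin-binding CUE domain protein that acts on the anaphase-promoting complex and on NF-kB signalling. Cradd, also called RAIDD, encodes the adaptor that joins PIDD1 to caspase-2 in the PIDDosome. Dph6 encodes the ligase of the last step in making diphthamide, the modified histidine of elongation factor 2 that diphtheria toxin attacks. Fam73a, now named Miga1, encodes mitoguardin 1, an outer mitochondrial membrane protein that promotes fusion together with the phospholipase Pld6. Srgn encodes serglycin, a proteoglycan core protein known from secretory granules of blood cells and first cloned from a yolk sac tumour.

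Promoter windows from RefSeq (GRCm38.p6), 250 bases before to 50 bases after a start site, were found for Cuedc2, Cradd, Dph6 and Srgn, with a pair of windows for Srgn. The upstream 250 bases of Cuedc2 and Cradd are shown because each holds 2 copies of the YY1 core (GCCATNTT, searched on both strands), marked in capitals. Each copy lies on the strand opposite to the gene and so appears as its reverse complement. The same stretch of Dph6 is shown beside them, with capitals marking its 3 matches to the THAP1 consensus (TNNGGGNA or TNNGGGNT, both strands).
Cuedc2 (chr19:46338661-46338910, minus strand): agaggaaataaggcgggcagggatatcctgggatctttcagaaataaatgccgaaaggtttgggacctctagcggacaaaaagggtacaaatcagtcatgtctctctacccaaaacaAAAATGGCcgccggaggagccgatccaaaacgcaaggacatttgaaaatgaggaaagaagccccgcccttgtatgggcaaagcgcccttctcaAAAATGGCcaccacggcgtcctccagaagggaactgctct
Cradd (chr10:95324138-95324387, minus strand): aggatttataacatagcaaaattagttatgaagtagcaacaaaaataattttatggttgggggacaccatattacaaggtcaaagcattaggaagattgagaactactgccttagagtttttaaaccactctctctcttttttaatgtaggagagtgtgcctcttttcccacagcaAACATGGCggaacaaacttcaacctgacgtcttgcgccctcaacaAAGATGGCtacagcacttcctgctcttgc
Dph6 (chr2:114654965-114655214, minus strand): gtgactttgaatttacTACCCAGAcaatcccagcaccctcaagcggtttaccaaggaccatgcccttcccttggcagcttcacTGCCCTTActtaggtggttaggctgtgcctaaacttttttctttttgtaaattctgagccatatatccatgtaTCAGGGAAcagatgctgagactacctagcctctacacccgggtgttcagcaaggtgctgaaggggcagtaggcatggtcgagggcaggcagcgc

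A YY1 core was present in 9.10% of the 11958 tested genes with a promoter window (1088 genes), and 2 or more cores in 0.619% (74 genes). Positions below give the first base of a match in the gene's direction, with negative numbers before the start site. In Cuedc2 the cores began at -133 and -40, and in Cradd at -74 and -29. The THAP1 consensus is short and common: TNNGGGNA matched 46.9% of the 15120 windows of tested genes and TNNGGGNT 45.5%, and either form 70.7%. All 4 genes with a window had at least 1 match. Dph6 had TNNGGGNA matches at -234, -167 and -94. Cradd also had 3 such matches and Cuedc2 had 2, while 14.1% of tested windows had 2 or more. Among the 56 windows of genes called down in both mutants, 9 (16.1%) had 2 or more, near that share. The Srgn windows had 1 consensus match each, at -182 and -185, and no match to the YY1 core in these letters. The Sp1 box GGGCGGG, at 44.8% of tested windows, matched in Cuedc2 alone. The box TATAAA, at 7.61%, matched in Srgn (-98) and Cradd (-246). The Ronin/ZNF143 and NRF1 cores, at 3.54% and 8.80% of tested windows, matched none of the 5 windows. The 5 windows were 40.3% to 53.7% G and C, against a median of 60.3% and a first quartile of 53.7% over tested windows. They held 4 to 13 CpG dinucleotides, against a median of 19.

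In both Cuedc2 and Cradd, one YY1 core stood beside a TNNGGGNA match with the same layout, seen only after the matches had been listed. Read in the direction of the core, the consensus followed after 3 bases on the same strand. Capitals mark the core and the consensus in these 19-base sites.
Cuedc2 (chr19:46338786-46338804, plus strand): GCCATTTTtgtTTTGGGTA
Cradd (chr10:95324204-95324222, plus strand): GCCATGTTtgcTGTGGGAA
Every spacing from 0 to 15 bases, with the consensus after or before the core on the same strand, was then counted over all promoter windows. Either form of the consensus was accepted here, TNNGGGNA or TNNGGGNT. A spacing of 3 bases with the consensus after the core occurred in 44 tested genes. Each of the other 31 layouts occurred in 0 to 6 tested genes, with a median of 1. Among the 44 genes, 10 were called down in both mutants, which is 22.7% of the 44 and 24.4% of the 41 genes called down in both that had a window. Cuedc2 and Cradd are among those 10, and without them the counts were 8 of 42 and 8 of 37 (21.6%). Galc and Zfp764, also among the 10, hold the TNNGGGNT form. The pair was present in 0.368% of all 11958 tested genes with a window, and 41 of the 11958 were called down in both. Neighbouring genes can share 1 site, as Plod3 and Znhit1 do, so the 44 genes do not all hold separate sites. No test was made of this overlap, since the layout came from genes chosen for their low levels and both mutants share the WT libraries. Of the 44 genes, 26 were not called in KO and 33 not in C54Y, and 8 were called up in KO and 1 in C54Y. Examples chosen after their values were seen are Ech1 (a peroxisomal and mitochondrial enoyl-CoA isomerase), 1110034G24Rik (now Shld1, a shieldin subunit), Usp31 (a deubiquitinase) and BC052040, all down in both. Rrm1, the large subunit of ribonucleotide reductase, holds the pair 2 times and was called in neither mutant.
Ech1 (chr7:28825207-28825225, minus strand): GCCATCTTtacTAAGGGCA
1110034G24Rik (chr2:132686834-132686852, minus strand): GCCATCTTaacTGAGGGCA
Usp31 (chr7:121707605-121707623, plus strand): GCCATGTTtagTATGGGCA
Usp31 (chr7:121707510-121707528, plus strand): GCCATATTgacTGTGGGAA
BC052040 (chr2:115581601-115581619, minus strand): GCCATCTTgggTAAGGGCA
Rrm1 (chr7:102441595-102441613, minus strand): GCCATATTgggTGTGGGCA
Rrm1 (chr7:102441686-102441704, minus strand): GCCATATTgagTGTGGGCA
Ech1 had a log2 fold change of -2.07 in KO and -2.80 in C54Y, 1110034G24Rik -2.63 and -3.37, Usp31 -2.60 and -2.13, and Rrm1 0.31 and 0.23 (adjusted p = 0.146 and 0.543 by limma). The pair was thus present both in genes called down in both mutants and in genes called in neither.

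**Figure D1:**
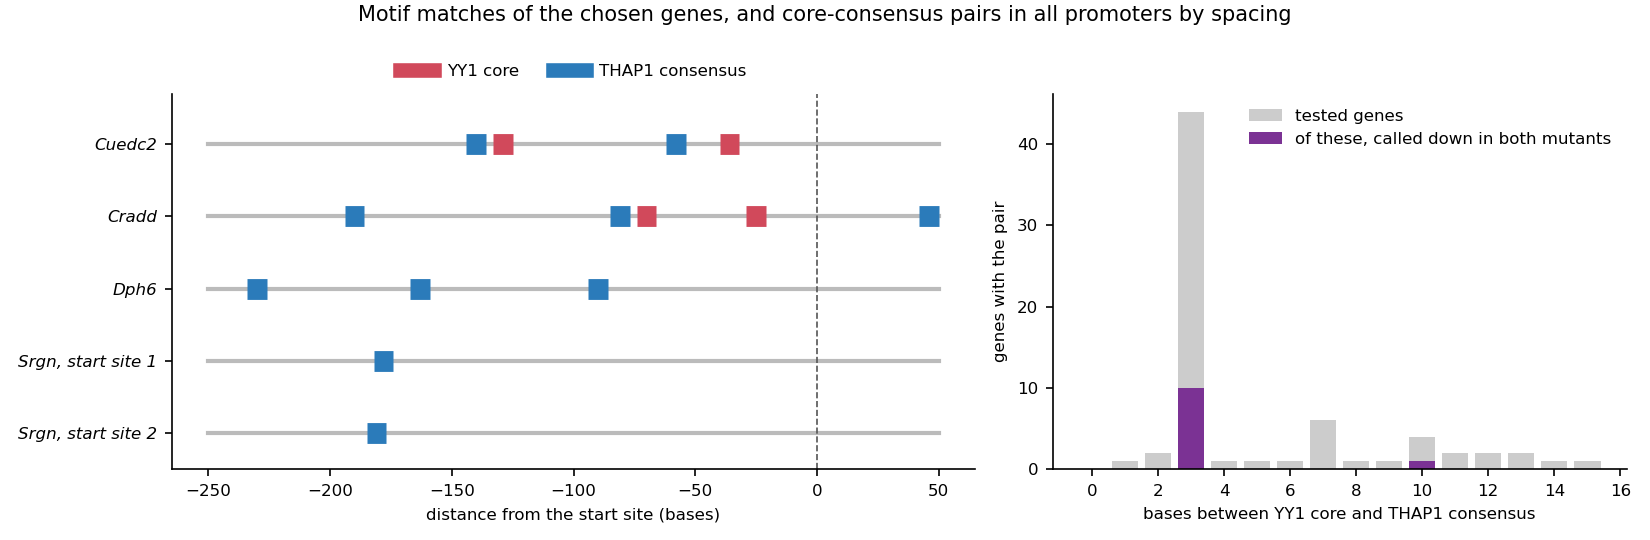
Left, distance in bases from the start site of YY1 core and THAP1 consensus matches (boxes) along each promoter window (grey line, 5 windows of 4 genes). Right, number of tested genes (grey) and of genes called down in both mutants (purple) whose window holds a consensus after a core, by the bases between them. The bar at 3 bases reaches 44 genes, 10 of them called down in both, and every other bar is at most 6.

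Levels are normalized counts: the reads of a gene over the size factor of its library. Because the genes were chosen by their low levels in KO and C54Y, the values against WT are a description with no test. Cuedc2 was the most abundant of the 5, at 3001 and 7098 normalized counts in WT replicates 1 and 2. It stood at 260 and 635 in C54Y and at 235 and 639 in KO. Within each replicate number the mutants kept 8.66% and 8.95% (C54Y) and 7.82% and 9.00% (KO) of the WT level, so the remaining share hardly varied between mutants or replicates. The fitted log2 fold change was -3.57 ± 0.17 (SE) in KO and -3.50 ± 0.17 in C54Y over the 6 libraries.

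Cradd gave 300 and 623 normalized counts in WT, 25.2 and 87.0 in C54Y, with 43.4 and 103.1 in KO. The share left was 8.40% and 14.0% in C54Y and 14.5% and 16.6% in KO. KO was above C54Y in both replicates, 1.73-fold and 1.18-fold, although the ranges of the 2 mutants overlapped. The log2 fold change was -2.65 ± 0.28 in KO and -3.14 ± 0.28 in C54Y.

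Dph6 gave 928 and 456 normalized counts in WT, 109 and 68.8 in C54Y, with 129 and 52.2 in KO. C54Y kept 11.7% and 15.1% of WT and KO 13.9% and 11.5%, with no fixed order of the mutants between replicates. The log2 fold change was -2.96 ± 0.26 in KO and -2.88 ± 0.26 in C54Y.

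Fam73a gave 2676 and 565 normalized counts in WT, a 4.74-fold difference between the WT libraries and the widest of the 5 genes. It stood at 265 and 104 in C54Y and at 299 and 73.8 in KO. C54Y kept 9.88% and 18.4% of WT and KO 11.2% and 13.1%. The 18.4% of C54Y replicate 2 was the highest share left of any of the 5 genes. The log2 fold change was -3.03 ± 0.26 in KO and -2.87 ± 0.26 in C54Y. For C54Y it ranged from -3.27 to -2.48 when 1 library was left out.

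Srgn gave 663 and 251 normalized counts in WT, 67.3 and 41.6 in C54Y, with 46.0 and 21.6 in KO. KO stood below C54Y in both replicates, at 0.684 and 0.521 of its level. C54Y kept 10.1% and 16.6% of WT and KO 6.94% and 8.62%, the lowest share of the 5 genes being that of KO replicate 1. The log2 fold change was -3.61 ± 0.30 in KO and -2.90 ± 0.30 in C54Y.

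**Figure D2:**
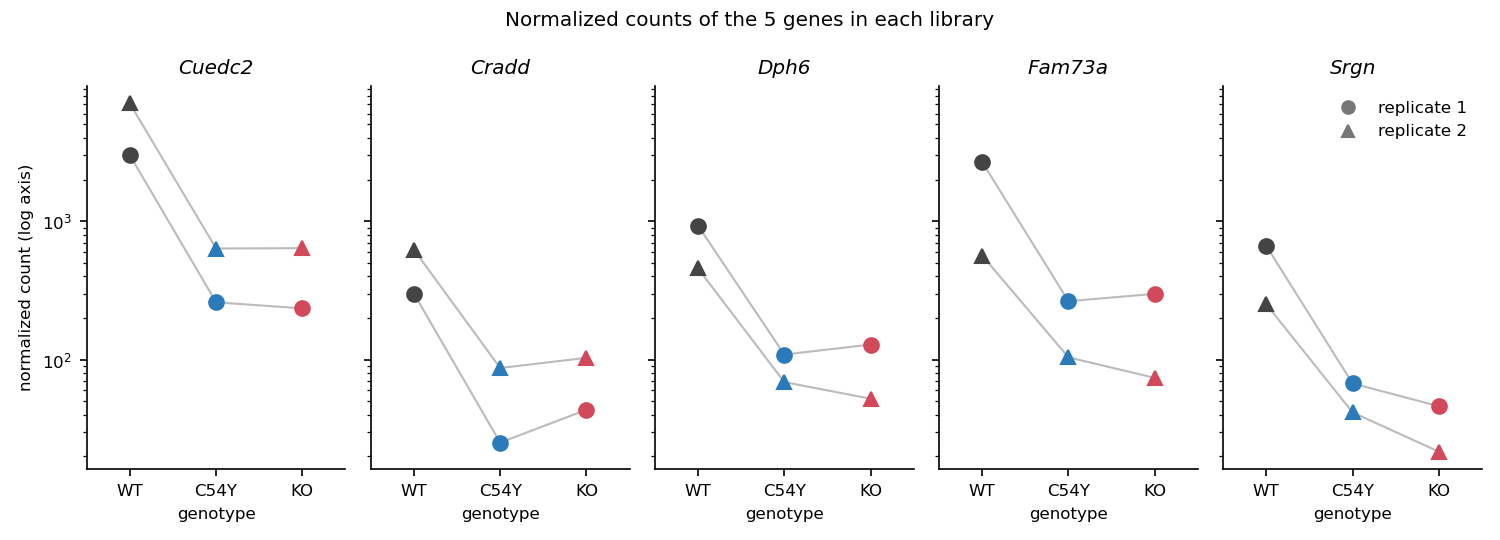
Normalized counts (log axis) of the 5 genes by genotype. Each point is 1 library (circles, replicate 1; triangles, replicate 2; grey lines join libraries of the same replicate number). In every panel both WT points lie above all 4 mutant points, and the C54Y and KO points overlap.

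WT and mutant libraries did not overlap for any of the 5 genes. The choice of the genes by their low levels favours this, and the share of all tested genes without overlap was not counted. The lowest WT library exceeded the highest mutant library 4.70-fold for Cuedc2, 3.73-fold for Srgn, 3.54-fold for Dph6, 2.91-fold for Cradd and 1.89-fold for Fam73a. The order of levels was thus WT first in each gene, which follows from the choice and is no finding. C54Y and KO overlapped in range over the unpaired libraries, which include the difference between replicate numbers. Within replicate numbers, KO was below C54Y both times for Srgn and above it both times for Cradd, while Cuedc2, Dph6 and Fam73a had no fixed order. The difference between the mutants was not tested. Every mutant library still had reads for every gene, from 17 for Srgn in KO replicate 2 to 502 for Cuedc2 in KO replicate 2. Per kilobase of exon (GENCODE M21), Cuedc2 was at percentiles 92.0 and 95.0 of tested genes in the WT libraries and at 43.3 to 66.5 in the mutants, so it stayed near the middle of the range of genes. In the mutants Cradd lay at percentiles 8.56 to 27.9, Dph6 at 15.5 to 20.9, Fam73a at 14.5 to 25.2 and Srgn at 19.0 to 26.2. Across the 5 genes and 4 mutant libraries, 6.94% to 18.4% of the WT level was left.

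**Figure D3:**
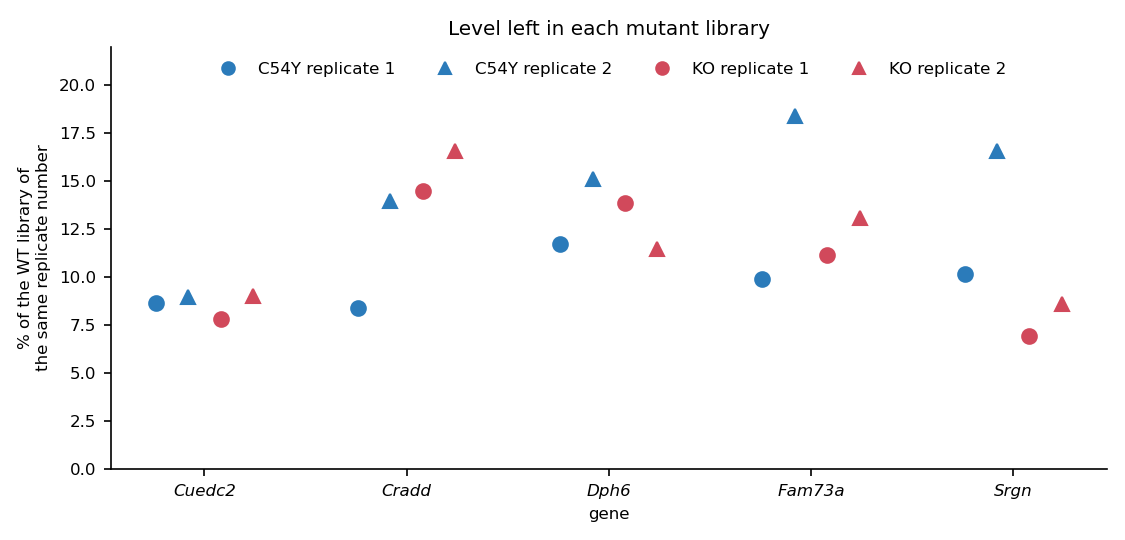
Level of each gene in each mutant library as a percent of the WT library with the same replicate number (blue, C54Y; red, KO; circles, replicate 1; triangles, replicate 2). All 20 points lie between 6.94% and 18.4%, and the Cuedc2 points lie closest together.

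Among all tested genes 7.41% were called down in KO and 0.399% in C54Y, and 16.3% and 1.36% were called in either direction (limma, Benjamini-Hochberg adjusted p under 0.05). Ranked by the size of the negative log2 fold change, the 5 genes held ranks 2 (Cuedc2), 4 (Cradd), 6 (Srgn), 8 (Dph6) and 9 (Fam73a) in C54Y. In KO they held ranks 9, 71, 8, 38 and 30 in the same order. When the 12439 genes with a mean of at least 50 normalized counts were ordered by the smaller of their 2 falls, the 5 genes took places 2 to 5 and 7. Ehd3, an endocytic recycling ATPase, was at place 1 (-4.09 in KO, -3.73 in C54Y) with a mean of 85.7 normalized counts. Shisa6, an AMPA receptor auxiliary protein, was at place 6 (-3.70 and -2.87) with a mean of 67.5. Just outside, at place 8, was 1110034G24Rik, with a smaller fall of -2.63 against -2.65 for Cradd. No numeric threshold was given for the choice of the 5 genes.

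Likeness between genes was measured by Euclidean distance over their 4 within-replicate log2 differences from WT. These are the values that chose the 5 genes, so that their nearness to each other follows from the choice and is no finding. On this scale Dph6 and Fam73a were nearest to each other (0.525), and Cradd was next to both (0.666 and 0.680). Shisa6 was the nearest gene to Srgn (0.759) and to Cuedc2 (0.951). In Shisa6 the WT libraries had 260 and 78.5 normalized counts, C54Y 38.1 and 7.79, and KO 15.6 and 5.09.

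The difference between the replicate numbers did not enter the choice of the genes and could be tested. Cuedc2 and Cradd were higher in replicate 2, and Dph6, Fam73a and Srgn lower, in all 3 genotypes. The log2 difference of replicate 2 from replicate 1 was 1.32 ± 0.13 for Cuedc2 (limma adjusted p = 3.18e-05) and 1.32 ± 0.23 for Cradd (adjusted p = 0.000902). It was -1.85 ± 0.21 for Fam73a (adjusted p = 6.65e-05), -0.98 ± 0.21 for Dph6 (adjusted p = 0.00315) and -1.03 ± 0.24 for Srgn (adjusted p = 0.00494). All 5 thus passed the test, in a comparison that called 64.9% of all tested genes. The direction of the replicate difference thus differed among the 5 genes, and the labels do not explain that difference. Their shared low level in the mutants is how they were chosen.

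The libraries held 31774656 to 46772996 reads. Thap1 itself was at 432.5 and 701.3 normalized counts in WT, 2253 and 2533 in C54Y, with 1975 and 1687 in KO. Counts per gene cannot show the loss of exon 2, so they do not check the KO label. Defining markers of pluripotent cells (10 of 10 in the table) summed to 187925 and 388140 normalized counts in WT, 217201 and 446145 in C54Y, with 323669 and 534269 in KO. Among them 5 were called up in KO and 1 in C54Y, with 0 called down in either mutant. Zfp42 was at 1843 and 974 in the WT libraries, against 5996 to 16657 in the mutants. Lin28a did not rise, and within each replicate number it was below WT in both mutants. Markers of endoderm were lower in sum in both mutants. Their summed level over 12 genes was 58702 and 39548 in WT, 26838 and 29908 in C54Y, with 24921 and 32301 in KO. Of these 12, 11 were called down in KO and 8 in C54Y, against 7.41% and 0.399% of all tested genes. Sparc, a large part of the endoderm sum, did not fall in replicate 2, at 14659 in WT, 15321 in C54Y and 18264 in KO. Some single endoderm markers had falls near those of the 5 genes. By log2 fold change, Sox17 was at -2.72 in KO and -2.55 in C54Y, Cubn at -3.84 and -2.43, and Gata6 at -2.38 and -2.44. They held places 9, 10 and 11 in the order by the smaller fall, and Cubn in KO fell further than any of the 5. Trophoblast markers (7 genes) summed to 22291 to 31162 in WT, 17902 to 18885 in C54Y and 5317 to 14341 in KO, with 3 called down and 1 up in KO. The summed level of fibroblast markers (15 genes), the feeder type, moved with the replicate number: 5652, 5150 and 2354 in WT, C54Y and KO of replicate 1, and 24703, 30176 and 28883 in replicate 2. Acta2 was a large part of that sum in replicate 2, at 11360 to 14988. Not every marker moved this way. Pdgfra was at 48.1 to 61.7 in the mutant libraries, against 272 and 157 for WT. Among the 14 tested fibroblast markers, 2 were called down in KO and 1 in C54Y, with 0 called up. Blood cell markers (12 genes) summed to 2266 to 3079 in WT, 2510 to 3588 in C54Y and 5297 to 8002 in KO, with 1 called up and 2 down in KO. Most of that sum was 1 gene, Laptm5, the one called up, at 1622 and 2022 in WT and 5009 and 7374 in KO. The genes called down were Coro1a (388 and 696 in WT, 122 and 265 in KO) and Runx1 (133 and 92.6 in WT, 13.9 and 48.4 in KO). None of these markers was at 0 in every library. Lum, Ptprc, Tyrobp, Cd48 and Elf5 were at 0 in at least 1. The part of these cell types in the levels of the 5 genes was not tested. In bulk RNA, fewer cells of a type and less RNA per cell cannot be told apart.

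The tested genes on either side of each of the 5 along the chromosome did not choose them, and asked whether the change reached beyond the gene itself. Over 3 tested neighbours on each side, 30 in all, 6 were called in KO (20.0%, 1 up and 5 down) and 2 in C54Y (6.67%, both down). The shares over all tested genes were 16.3% and 1.36%. The gap to a neighbour ran from 0 for Fbxl15, beside Cuedc2, to 2245 kilobases for a neighbour of Dph6, so some lay far off. The median log2 fold change of the 30 was -0.26 in KO and -0.09 in C54Y, against 0.03 and 0.00 over all tested genes. Leaving out KO replicate 1 raised the KO count to 12, and leaving out KO replicate 2 to 10. The C54Y count became 0 without C54Y replicate 2, 1 without C54Y replicate 1, and 4 without either KO library. Without the replicate block, limma called 0 in each comparison, with 2 neighbours in KO and 1 in C54Y at an unadjusted p under 0.05.

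Around Cuedc2, on chromosome 19, the 6 neighbours had adjusted p of 0.058 to 0.846 in KO and 0.610 to 0.991 in C54Y. Fbxl15, a ubiquitin ligase subunit gene on the opposite strand, shares 345 exon bases with Cuedc2 in GENCODE M21, 14.6% of the Cuedc2 exon length. Fbxl15 was at 68.0 and 171 normalized counts in WT, 62.6 and 165 in C54Y, with 93.8 and 225 in KO. Its log2 fold change was 0.42 in KO (adjusted p = 0.306), with -0.08 in C54Y (adjusted p = 0.949), so it did not pass the test where Cuedc2 was at under 10% of WT. The strand setting of the counting was not stated, and reads from the shared bases cannot be assigned to either gene without it. On the other side, 2310034G01Rik was at 0.14 (adjusted p = 0.846) and 0.02 (adjusted p = 0.991).

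Around Cradd, on chromosome 10, Socs2, which encodes a suppressor of cytokine signalling, fell in both mutants. It had 2628 and 2391 normalized counts in WT, 1488 and 1095 in C54Y, with 1905 and 1195 in KO. All 4 mutant libraries were below both WT libraries. The log2 fold change of Socs2 was -0.73 ± 0.17 in KO (adjusted p = 0.0219), with -0.97 ± 0.17 in C54Y (adjusted p = 0.0335). Leaving out WT replicate 2 ended the KO call, and the C54Y call was lost without WT replicate 2 or either C54Y library. The nearest tested gene on that side, 2310039L15Rik, rose in KO by 1.08 ± 0.27 on the log2 scale (adjusted p = 0.0282; lost without either WT library), and was at 0.58 in C54Y (adjusted p = 0.436). Plxnc1, a plexin receptor gene 230 kilobases away on the other side, was at -0.08 and 0.00 (adjusted p = 0.898 and 0.998).

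Around Dph6, on chromosome 2, the nearest tested gene on one side was BC052040, 926 kilobases away. It fell in both mutants. It had 1162 and 1503 normalized counts in WT, 426 and 513 in C54Y, with 270 and 383 in KO, so no mutant library reached WT. Its log2 fold change was -2.03 ± 0.18 in KO (adjusted p = 0.000447), with -1.50 ± 0.18 in C54Y (adjusted p = 0.00641, lost without C54Y replicate 2). BC052040 carries the paired YY1 and THAP1 site shown above. On the other side Zfp770, a zinc finger gene 315 kilobases away, was at -0.33 in KO (adjusted p = 0.502), with -0.03 in C54Y (adjusted p = 0.983).

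Next to Fam73a, on chromosome 3, Nexn, which encodes the actin-binding protein nexilin, fell in KO. The log2 fold change there was -2.47 ± 0.33 (adjusted p = 0.0023). It had 469 and 61.8 normalized counts in WT, 235 and 35.1 in C54Y, with 59.1 and 14.0 in KO. Within each replicate number the order was WT, C54Y, KO, but the C54Y difference of -0.89 did not pass (adjusted p = 0.303). Ak5, an adenylate kinase gene, was at -1.69 ± 0.46 in KO (adjusted p = 0.0389; lost with DESeq2, without WT replicate 1 and without KO replicate 1), with -0.45 in C54Y (adjusted p = 0.801). Without KO replicate 1 the KO value of Ak5 was -0.92, and without KO replicate 2 it was -2.45. Usp33, a deubiquitinase gene on the other side, was at -0.58 (adjusted p = 0.097) and -0.28 (adjusted p = 0.689).

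Around Srgn, on chromosome 10, Vps26a, a retromer subunit gene, was at -0.37 in KO (adjusted p = 0.258), with -0.26 in C54Y (adjusted p = 0.710). The other nearest gene, 2510003E04Rik, was at -0.05 and -0.29 (adjusted p = 0.887 and 0.566). Hkdc1, a hexokinase family gene, fell in KO, with a log2 fold change of -3.01 ± 0.63 (adjusted p = 0.0140). Its normalized counts were 164 and 36.0 in WT, 28.6 and 16.9 in C54Y, with 5.21 and 11.5 in KO, and the size of this change rested on single libraries. It was -1.86 without KO replicate 1, -1.90 without WT replicate 1, -4.13 without WT replicate 2 and -4.17 without KO replicate 2. Its C54Y difference was -1.73 (adjusted p = 0.291).

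**Figure D4:**
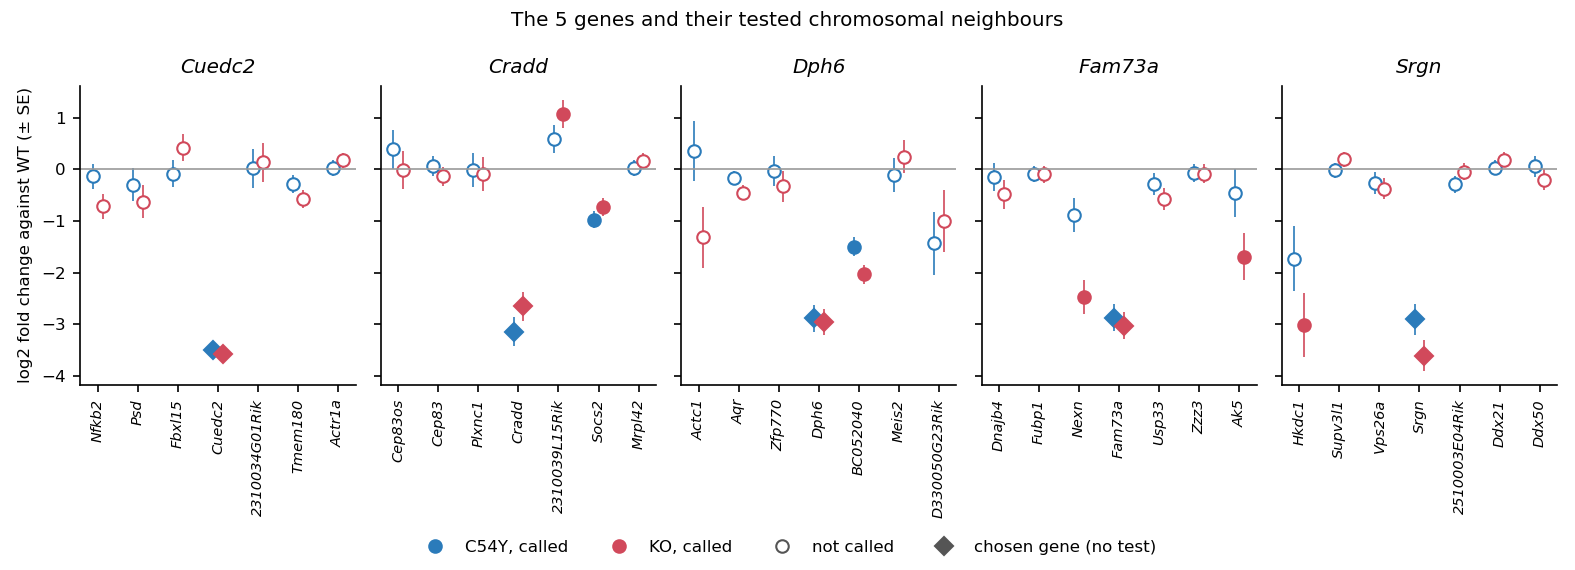
Log2 fold change against WT (± SE) of each of the 5 genes (diamonds) and its 3 tested neighbours on each side in chromosome order (circles; blue, C54Y; red, KO; filled, adjusted p under 0.05). The diamonds lie at -2.65 or lower, while most circles lie near 0; BC052040 and Socs2 are filled in both colours.

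The partner and pathway genes of the 5 were mostly not called. Of 111 tested, 18 were called in KO (16.2%, 10 up and 8 down) and 2 in C54Y (1.80%, 1 up and 1 down), near the shares over all tested genes. Leaving out KO replicate 1 gave 33 calls in KO, KO replicate 2 gave 44, and WT replicate 2 gave 11. The C54Y count ranged from 0 (without C54Y replicate 2) and 1 (without C54Y replicate 1 or WT replicate 2) to 6 (WT replicate 1 left out), 11 (KO replicate 2 left out) and 12 (KO replicate 1 left out). Without the replicate block limma called 0, with 8 (KO) and 3 (C54Y) at an unadjusted p under 0.05.

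For Dph6, 7 genes of diphthamide synthesis and its target were tested. Dph1, part of the first step of the pathway, rose in KO: 371 and 391 normalized counts in WT, 467 and 575 in C54Y, with 565 and 796 in KO. Dph1 had a log2 fold change of 0.81 ± 0.20 in KO (adjusted p = 0.0246, lost without WT replicate 2), with 0.44 in C54Y (adjusted p = 0.407). The other 6 did not pass in KO, and the 7 did not pass in C54Y. Among them, Dph2 was at 0.15 in KO and -0.09 in C54Y, Dph3 at 0.25 and -0.03, Dph5 at -0.02 and 0.01, Dph7 at 0.07 and 0.05, and the cochaperone gene Dnajc24 at -0.05 and -0.12. Eef2, the modified protein itself, was at 0.39 in KO (adjusted p = 0.066), with 0.28 in C54Y (adjusted p = 0.406).

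For Cradd, 14 genes of the PIDDosome and death domain signalling were tested, and 1 was called up and 2 down in KO. Its direct partners did not pass: Pidd1 was at -0.27 in KO (adjusted p = 0.336) and -0.09 in C54Y, and Casp2 at 0.14 (adjusted p = 0.620) and 0.10. Apaf1, the apoptosome scaffold, fell in KO (-0.91 ± 0.16, adjusted p = 0.00686), as did Mdm2, the p53 ubiquitin ligase (-0.58, adjusted p = 0.0456, lost without either C54Y library, WT replicate 2 or KO replicate 2, and without the filter).

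For Fam73a, 16 of 17 mitochondrial fusion and fission genes were tested, and 1 was called, down in both mutants. This was Mff, the receptor of the fission GTPase Drp1: 2193 and 2433 normalized counts in WT, 1120 and 1112 in C54Y, with 1426 and 994 in KO. The mutant libraries lay below both WT libraries. Its log2 fold change was -0.95 ± 0.19 in KO (adjusted p = 0.0117, lost without WT replicate 2), with -1.05 in C54Y (adjusted p = 0.0375, lost without WT replicate 2 or either C54Y library). Mff has a fission role, opposite to that of Fam73a. Its promoter window holds 1 YY1 core, and 9.10% of tested genes with a window hold 1 or more. Mfn1, called in neither mutant, holds the paired YY1 and THAP1 site, with the consensus in its TNNGGGNT form. The fusion genes that act with Fam73a did not pass: Fam73b (the paralog, now Miga2) was at 0.11 in KO and 0.06 in C54Y, Pld6 at 0.25 and 0.13, Mfn1 at 0.37 and 0.18, and Mfn2 at 0.10 and -0.01.

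For Cuedc2, 9 genes of the CUE domain family and 21 of the anaphase-promoting complex and spindle checkpoint were tested. In the family 1 was called up in KO, Tab3, a ubiquitin-binding adaptor of NF-kB signalling (1.18 ± 0.22, adjusted p = 0.00909). Cuedc1 was at -0.34 in KO and 0.12 in C54Y, not called. In the complex 3 were called up in KO, Anapc5 (0.53, adjusted p = 0.0181), Fzr1 (0.52, adjusted p = 0.0354) and Ube2s (0.51, adjusted p = 0.0159), each lost in at least 1 fit that left out a library. Fzr1 was also lost with TMM factors.

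For Srgn, 24 of 26 proteoglycan core proteins were tested, and 2 were called up and 2 down in KO. Cspg5, a neural chondroitin sulphate proteoglycan, rose by 1.92 (adjusted p = 0.00322), and Gpc3, a glypican, by 0.77 (adjusted p = 0.0212, lost without WT replicate 2). Ncan, neurocan, fell by 1.80 (adjusted p = 0.00326) and Gpc6, a glypican, fell by 1.04 (adjusted p = 0.0342). Of 19 tested enzymes that build or sulphate the chains carried by serglycin, 2 were called up and 2 down in KO. The sulphotransferase gene Chst3 rose by 2.00 (adjusted p = 0.00204), and was at 1.27 in C54Y (adjusted p = 0.0587). Xylt2, which starts the chains, rose by 0.54 (adjusted p = 0.0423), a call lost with TMM factors, with edgeR, without the filter, and without either WT or either C54Y library. Its paralog Xylt1 was at 1.14 (adjusted p = 0.105). The sulphotransferase genes Chst15 and Chst14 fell by 1.57 (adjusted p = 0.0196) and fell by 1.00 (adjusted p = 0.0431). For Chst15 the log2 fold change was -0.83 without KO replicate 1 and -2.30 without KO replicate 2. Of 12 granule proteins stored with serglycin, 8 were matched in the table and 1 was tested, the gelatinase gene Mmp9. It fell in KO (-2.52 ± 0.30, adjusted p = 0.00154) and was at -1.07 in C54Y (adjusted p = 0.160).

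**Figure D5:**
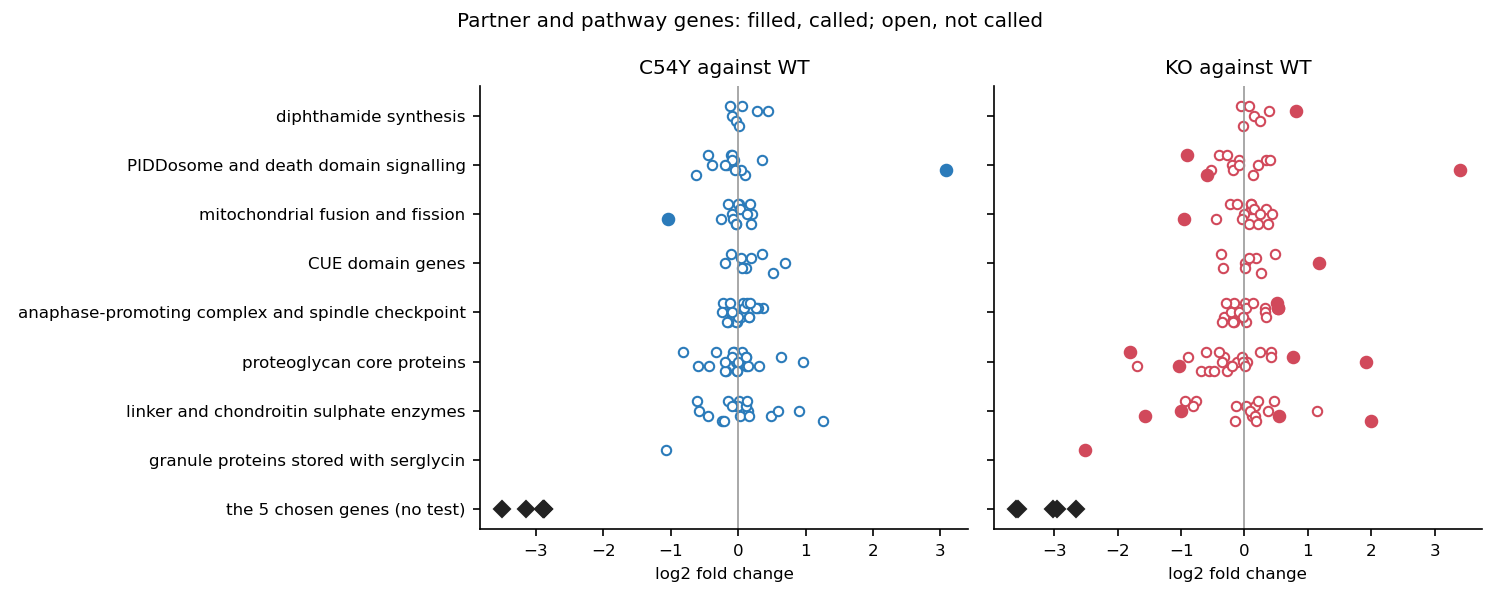
Log2 fold change against WT of partner and pathway genes (circles, 1 per tested gene, by list) in C54Y and KO; filled circles have an adjusted p under 0.05, and black diamonds are the 5 chosen genes, with no test. The diamonds lie at -2.65 or lower in both panels, below every circle; 2 circles are filled in C54Y and 18 in KO.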

How the data were processed

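RNA from the 6 libraries was made with an RNeasy kit and a TruSeq kit, per the labels' protocols. Build mm9 and the tools TopHat2 2.1.0, HTSeq, DESeq2, Trimmomatic and CASAVA are listed in the submitters' processing notes. The annotation, strand setting and filters are not given in the sources used here. The values deposited by the authors are a signal per gene and library, normalized counts that equal a gene's reads over the library's size factor. All values were whole multiples of the column's step (tolerance 1e-06), so whole reads were recovered: 100% of values came out whole, and edgeR on these reads called 2457 genes in KO and 198 in C54Y.

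The test was limma 3.58.1 with a robust trend (R 4.3.3) on log2(normalized count + 2), a scale that understates changes of low genes, for 15287 genes with at least 10 normalized counts in at least 2 libraries. The model held genotype and replicate number over the 6 libraries (2 residual degrees of freedom), with Benjamini-Hochberg adjustment over all tested genes at 0.05. Same-numbered libraries deviated together from their group means across genes (correlations 0.907, 0.869 and 0.895), so the numbers pair the libraries; the labels do not say what a number marks. Alternatives were no block, pseudocounts of 0.5 and 10, no filter, TMM factors, edgeR 4.0.16 and DESeq2 1.42.0 on the reads, and leaving out each library. The test was checked on simulated data.

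The 5 genes, the lists and the motifs were chosen with earlier results of these data known. Genes named beside the 5 are the nearest tested neighbours, other neighbours called, listed direct partners, up to 3 called genes per list with the smallest p, the 2 genes nearest in pattern, and genes ranking among the 5. One listed gene that the rule names is not reported here. Others were named after their values were seen, as were the counts of 2 or more YY1 cores and of paired sites. Of the table's symbols, 19630 (99.6%) matched RefSeq names; promoter coordinates are GRCm38.p6, not the build of the files.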

Additional observations from a re-analysis of the deposited data

How the results depend on the processing

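The 5 genes kept negative log2 fold changes in KO and C54Y in each alternative (-3.80 to -2.51 with all 6 libraries, the largest shift being 0.29 at a pseudocount of 10). Leaving out 1 library gave -3.43 to -2.85 for Cradd in C54Y, -3.32 to -2.74 for Fam73a in KO and -3.27 to -2.48 for Fam73a in C54Y. The replicate difference was called for 5 of 5 genes in each alternative. Without the replicate block limma called 0 genes, neighbours and pathway genes in KO and in C54Y, with 1049 and 252 genes at an unadjusted p under 0.05; this fit leaves the replicate difference in the residual spread. Over all genes, DESeq2 called 479 in C54Y against 208, and pseudocount 10 left 1 pathway gene in C54Y. Leaving out each library gave 1749 to 4861 genes, 4 to 12 neighbours and 11 to 44 pathway genes in KO, and 69 to 1818, 0 to 4 and 0 to 12 in C54Y; the cause was not tested. The KO split of 1361 up and 1133 down became 1095 and 1347 with TMM factors and 1088 and 1369 with edgeR. Without a library its genotype has 1 sample, assumed to vary like the others. Depth limits Srgn and Cradd most, with 17 to 99 reads in the mutant libraries.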
